A study of Rattus norvegicus with 9 samples.

Results

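The 9 genes described here encode liver enzymes that break down the aromatic amino acids tyrosine and tryptophan: Tat, Hpd, Hgd and Fah for tyrosine, and Tdo2, Afmid, Kmo, Kynu and Haao for tryptophan. They were chosen by symbol, as steps of these pathways. Of the 9, 8 had a named probe set, 1 each, and all 8 were among the 15793 genes tested. Afmid, the formamidase that makes kynurenine, was not analysed here.

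The series holds 9 Affymetrix whole-transcript arrays of rat livers that were regrowing after partial hepatectomy under retrorsine, an alkaloid that blocks the division of hepatocytes. In this model much of the new tissue comes from small hepatocyte-like progenitor cells (SHPCs), which form clusters and were cut out of frozen sections by laser. All rats were female F344 rats given 30 mg/kg retrorsine in 2 injections 2 weeks apart, with the hepatectomy 4 weeks after the second. The 3 groups held 3 arrays each: SHPCs of livers that had received Thy1+ cells through the spleen (below, transplanted livers), SHPCs of livers without transplantation, and hepatocytes beside SHPC clusters in livers without transplantation. Per the labels, the donors carried the enzyme DPPIV and the recipients lacked it. The hepatocytes shared the retrorsine and the hepatectomy, so no untreated liver is in the series, and no group held hepatocytes of transplanted livers. How many animals were used, and which of them each region came from, the labels do not say. The p-values therefore rest on the spread between arrays, and they are too small where arrays of the same group share an animal. Where arrays of compared groups share an animal, the single fit used below does not pair them. A description label of the hepatocyte arrays speaks of transplanted SHPCs, against their cell type label and titles, which were followed.

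Tyrosine is broken down in the hepatocyte by tyrosine aminotransferase (Tat), then 4-hydroxyphenylpyruvate dioxygenase (Hpd), homogentisate dioxygenase (Hgd) and, last, fumarylacetoacetase (Fah), and it ends as fumarate and acetoacetate. Tryptophan enters the kynurenine pathway through tryptophan dioxygenase (Tdo2), and kynurenine then passes through kynurenine monooxygenase (Kmo), kynureninase (Kynu) and 3-hydroxyanthranilate dioxygenase (Haao) on the way to quinolinate and NAD. Tat and Tdo2 are textbook targets of glucocorticoids and mark mature hepatocytes, since both are switched on around birth or later.

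The promoters of Tdo2 and Kmo are shown because these genes passed the test together, and that of Tat because its pattern over the groups was unlike theirs. The sequences are from RefSeq (build GRCr8), run 5′ to 3′ on the gene's strand from 250 bases before to 50 after the annotated start, and hold in capitals each match to the searched motifs on either strand. They lie at chr2:169585537-169585836 (minus strand), chr13:90089271-90089570 (plus strand) and chr19:54856354-54856653 (plus strand).
Tdo2: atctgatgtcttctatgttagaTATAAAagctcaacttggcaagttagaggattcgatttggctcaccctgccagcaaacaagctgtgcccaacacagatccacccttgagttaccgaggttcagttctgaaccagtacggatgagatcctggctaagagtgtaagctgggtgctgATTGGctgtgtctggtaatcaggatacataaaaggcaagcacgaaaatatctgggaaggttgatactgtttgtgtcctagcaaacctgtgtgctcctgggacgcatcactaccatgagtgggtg
Kmo: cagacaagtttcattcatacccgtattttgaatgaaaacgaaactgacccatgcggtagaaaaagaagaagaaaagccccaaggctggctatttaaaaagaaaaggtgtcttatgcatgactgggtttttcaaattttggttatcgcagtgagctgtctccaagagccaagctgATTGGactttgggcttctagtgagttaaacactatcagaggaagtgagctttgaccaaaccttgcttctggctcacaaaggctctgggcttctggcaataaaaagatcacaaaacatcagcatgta
Tat: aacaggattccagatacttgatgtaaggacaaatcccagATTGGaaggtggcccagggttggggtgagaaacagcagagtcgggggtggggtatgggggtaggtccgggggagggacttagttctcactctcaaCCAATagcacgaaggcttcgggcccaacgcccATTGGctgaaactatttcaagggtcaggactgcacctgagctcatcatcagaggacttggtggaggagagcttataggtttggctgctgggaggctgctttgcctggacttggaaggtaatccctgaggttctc

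All 9 genes had a promoter entry. The motifs searched were TATAAA (core promoter), CCAAT (bound by NF-Y), TGTTCT (part of the glucocorticoid receptor site), GTTAAT (part of the HNF1 site) and CACGTG (E-box), on both strands. CCAAT was found in 5 of the 9 promoters, those of Tat, Hgd, Tdo2, Kmo and Kynu, against 37.5% of 33469 promoters of the same length. It lay on the minus strand in both Tdo2 (positions -74 to -70 from the start) and Kmo (-76 to -72), where the capitals read ATTGG. The Tat window held 3 CCAAT matches, on both strands. TATAAA was found in Tdo2 alone among the 9, well upstream in the window (14.2% of all promoters), TGTTCT in Haao alone (20.7%) and GTTAAT in Hpd alone (7.45%). CACGTG was found in 0 of the 9 (6.42% of all promoters). These are matches of letters only, and a motif outside the window was not searched.

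The deposited RMA intensities were taken to log2, and groups were compared with limma in a single fit over all 9 arrays, with Benjamini-Hochberg adjustment over the 15793 genes and a threshold of 0.05. Array 2 of the SHPCs without transplantation and array 2 of the hepatocytes stood apart from the other 7 arrays. Their scores on the first principal component, which held 54.4% of the variance, were 54.1 and 42.2, against -22.8 to 2.30 on the others. Their median intensities were 24.1 and 23.0, against 19.6 to 20.6, and the log2 values of all probe sets spread less on them, with SDs of 1.94 and 1.98 against 2.09 to 2.13. Values without one or both of them are given beside the results that they move. The hepatocyte label was set against 8 tested markers, among them Alb and Ttr, which lay above the 25th percentile on all 9 arrays. Their mean level spanned 11.94 to 12.03 in SHPCs of transplanted livers, 11.72 to 11.97 in other SHPCs and 11.83 to 12.03 in hepatocytes. Over hepatocytes, 7 of the 8 were higher in SHPCs of transplanted livers (2 of 8 under cyclic loess) and 5 of 8 in other SHPCs. The 1 marker lower in SHPCs of transplanted livers was Cyp2e1. Cyp2e1, the pericentral P450 among the 8, averaged 11.38 in SHPCs of transplanted livers, 11.39 in other SHPCs and 12.03 in hepatocytes, with both SHPC groups below all hepatocyte arrays (adjusted p = 0.167 and 0.579 by limma). Without both arrays that stood apart, its change in SHPCs of transplanted livers over hepatocytes was -0.76 and passed (adjusted p = 0.0459 by limma). In other SHPCs it was then -0.64 and did not pass (adjusted p = 0.269).

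In SHPCs of transplanted livers, Tdo2 and Kmo rose relative to hepatocytes, by 1.88-fold and 2.03-fold, and the other 6 measured genes were higher on average without passing the test. Between SHPCs of transplanted and untransplanted livers, and between SHPCs of untransplanted livers and hepatocytes, 0 of the 8 genes passed. Tat was highest in SHPCs of untransplanted livers. The 8 genes' mean level on an array spanned 10.44 to 10.49 in SHPCs of transplanted livers, 9.85 to 10.33 in SHPCs of untransplanted livers and 9.71 to 10.09 in hepatocytes. All 8 lay above the 25th percentile on all 9 arrays, so the filter on dim genes selected none of them for a difference.

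**Figure D1:**
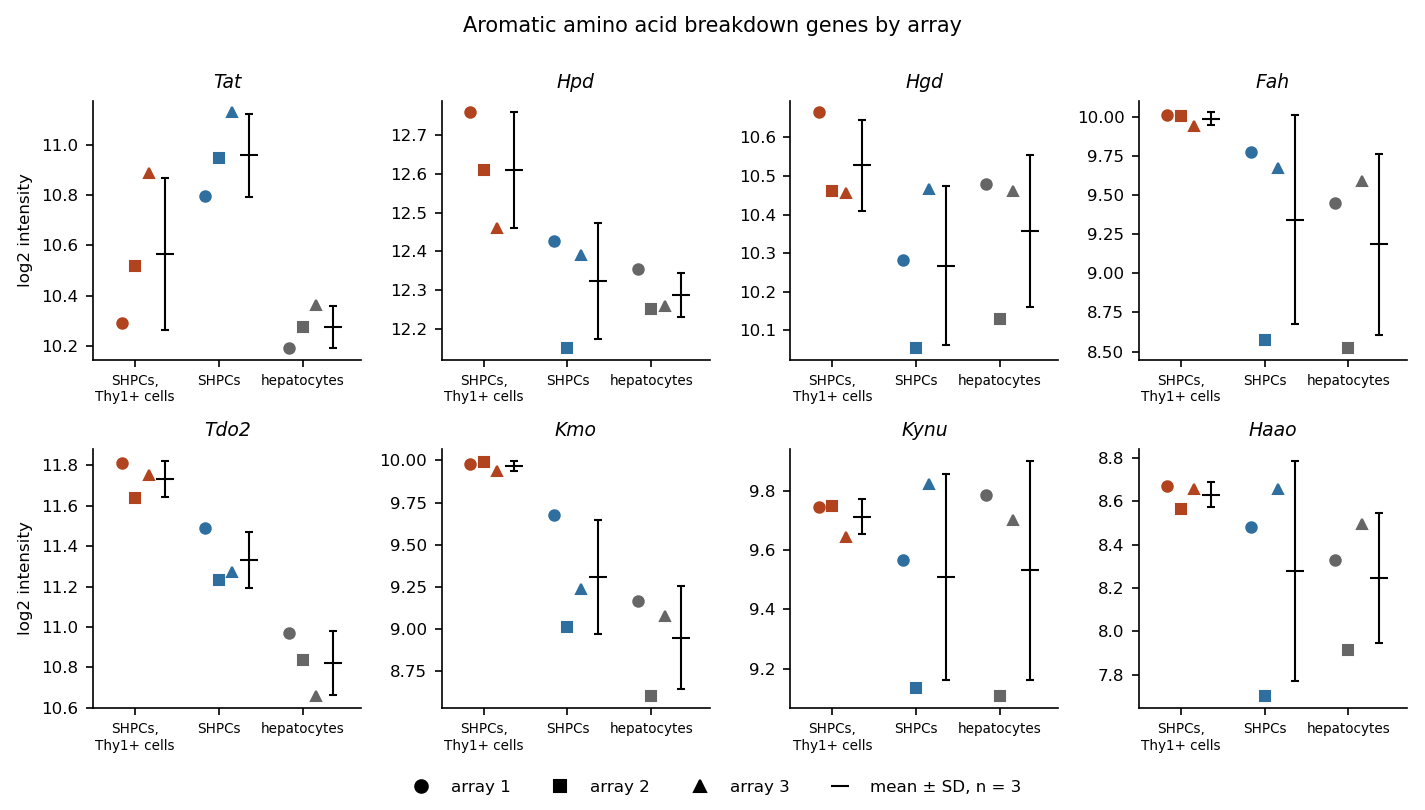
Log2 intensity of the 8 measured genes on each array (points) with the group mean (bar), for SHPCs of transplanted livers, SHPCs of untransplanted livers and hepatocytes. Tdo2 lies in 3 separate steps, Tat is highest in SHPCs of untransplanted livers, and array 2 of the SHPCs and of the hepatocytes is low for Fah, Kynu and Haao.

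Against hepatocytes, the SHPCs of transplanted livers had all 8 genes higher (6 of 8 under cyclic loess), with a median change of 0.35 (1.28-fold), where the median of all tested genes was -0.0013. Of the 8, 2 passed the adjusted threshold, against 1.18% of all genes (136 higher and 50 lower). At an unadjusted p under 0.05 the count was 4 of 8, against 10.4%, and the arrays did not overlap for 5 of 8, against 19.2%. Without array 2 of both groups, 7 of 8 were higher, Tdo2, Kmo and Fah passed, and the median change was 0.30, while genes passing overall numbered 575 (3.64%) against 186.

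Against SHPCs of untransplanted livers, SHPCs of transplanted livers had 7 of 8 genes higher (6 of 8 under cyclic loess) and Tat lower, with a median change of 0.32 (1.25-fold) and 0.02 over all genes. The count past the adjusted threshold was 0 of 8 (smallest adjusted p 0.460, Kmo), where all genes gave 1 call, or 0.00633%. At an unadjusted p under 0.05 there were 3 of 8, Tdo2, Kmo and Tat, against 7.35% of all genes. The arrays lay apart for 4 of 8, against 15.8%. Without SHPC array 2 the median change was 0.18, with the same 7 genes higher.

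SHPCs of untransplanted livers against hepatocytes gave 6 of 8 genes higher (7 under cyclic loess and 5 under renewed quantile normalization), a median change of 0.10 and -0.01 over all genes. The count past the adjusted threshold was 0 of 8, where 0.0633% of all genes passed (5 higher and 5 lower). Tat and Tdo2 were the 2 of 8 at an unadjusted p under 0.05, against 4.12% of all genes, and the 2 of 8 whose arrays lay apart, against 5.22%. Deviations from the group mean on same-numbered arrays of these groups correlated at 0.34 to 0.70, highest for the 2 arrays that stood apart. Those of SHPC array 3 and hepatocyte array 1 correlated at 0.48, and whether the number marks a pair was not tested. With the number as a block, 35 genes passed over all 9 arrays, against 10 without it, and 76 passed over the arrays of these groups alone, against 0 without it. None of the 8 passed in either blocked fit, and over these groups alone the adjusted p was 0.0914 for Tat and 0.236 for Tdo2. The median change was 0.41 without SHPC array 2, -0.06 without hepatocyte array 2 and 0.18 without both, so its size rests on those arrays. The 3 comparisons share their groups pairwise and are not separate evidence.

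**Figure D2:**
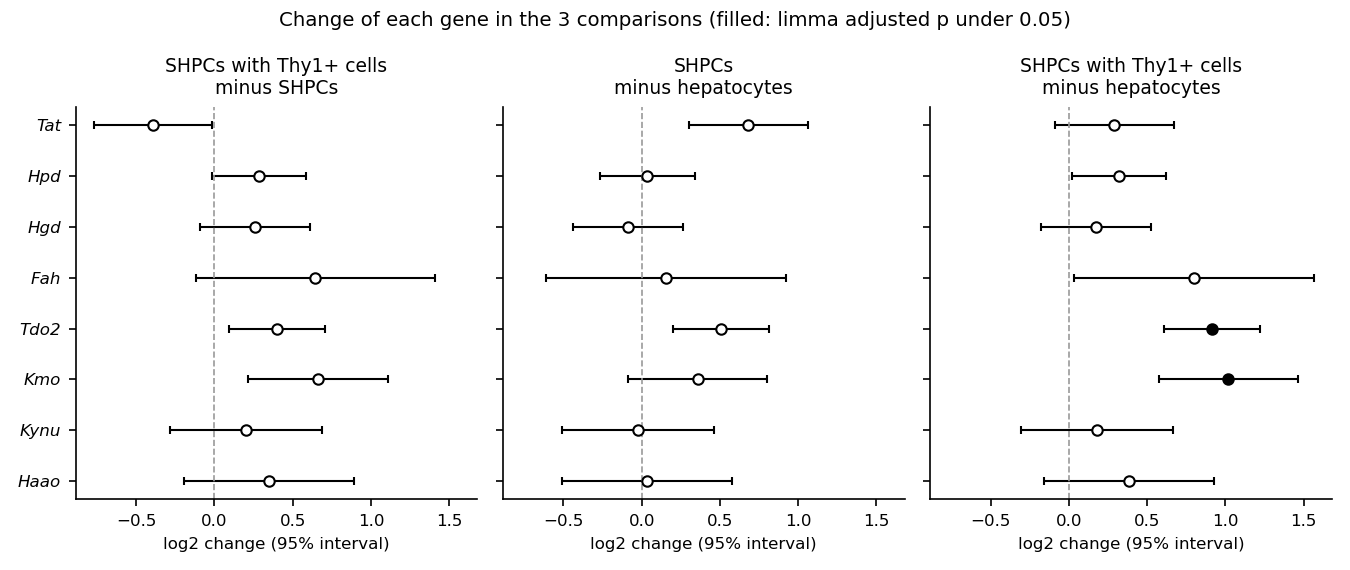
Log2 change of the 8 measured genes with its 95% interval in each of the 3 comparisons, on a common axis; filled points passed the adjusted threshold. Only Tdo2 (0.91) and Kmo (1.02), both in SHPCs of transplanted livers over hepatocytes, are filled.

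Tat, the aminotransferase that takes tyrosine to 4-hydroxyphenylpyruvate, had log2 intensities of 10.29, 10.52 and 10.89 in SHPCs of transplanted livers, 10.80, 10.95 and 11.13 in SHPCs of untransplanted livers and 10.19, 10.27 and 10.36 in hepatocytes. Every SHPC array of untransplanted livers lay above every hepatocyte array, and the arrays of transplanted livers overlapped both of the other groups. In SHPCs of untransplanted livers over hepatocytes the change was 0.68 ± 0.17 (SE, 1.60-fold, 95% interval 0.30 to 1.06), with an adjusted p of 0.469 by limma. In SHPCs of transplanted over untransplanted livers it was -0.39 ± 0.17 (95% interval -0.77 to -0.01, adjusted p = 0.669 by limma), and over hepatocytes 0.29 ± 0.17 (adjusted p = 0.622 by limma). The order of the group means was thus SHPCs of untransplanted livers, SHPCs of transplanted livers and hepatocytes, and no neighbours in it differed past the adjusted threshold. Tat was the only one of the 8 genes whose mean was lower in SHPCs of transplanted than of untransplanted livers (under cyclic loess Kynu was too). It was not low on the arrays that stood apart: SHPC array 2 lay between the other 2 SHPC arrays, and hepatocyte array 2 likewise.

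Hpd, the dioxygenase that makes homogentisate, had 12.76, 12.61 and 12.46 in SHPCs of transplanted livers, 12.43, 12.15 and 12.39 in SHPCs of untransplanted livers and 12.35, 12.25 and 12.26 in hepatocytes. Each array of transplanted livers lay above all arrays of the other groups, which overlapped. The change was 0.29 ± 0.14 over SHPCs of untransplanted livers (adjusted p = 0.697 by limma) and 0.32 ± 0.14 over hepatocytes (adjusted p = 0.448), higher on 3 of 3 arrays. Hgd, which opens the ring of homogentisate, had 10.66, 10.46 and 10.46 in SHPCs of transplanted livers, 10.28, 10.05 and 10.47 in SHPCs of untransplanted livers and 10.48, 10.13 and 10.46 in hepatocytes. The 3 groups overlapped, and its changes were between -0.09 and 0.26. Without array 2 of both groups, Hgd in SHPCs of transplanted livers was 0.15 above SHPCs of untransplanted livers and 0.06 above hepatocytes.

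Fah, the last enzyme of the pathway and the one lost in hereditary tyrosinemia type I, had 10.013, 10.004 and 9.94 in SHPCs of transplanted livers, 9.78, 8.57 and 9.67 in SHPCs of untransplanted livers and 9.45, 8.52 and 9.59 in hepatocytes. The arrays of transplanted livers were the 3 highest of the 9, and array 2 of each other group lay about 1 log2 unit below its own group. The change was 0.64 ± 0.34 over SHPCs of untransplanted livers (adjusted p = 0.705 by limma) and 0.80 ± 0.34 over hepatocytes (adjusted p = 0.456). Without array 2 of both groups it was 0.26 over SHPCs of untransplanted livers and 0.47 over hepatocytes, where it then passed (adjusted p = 0.0425 by limma). In these captured regions, fewer cells of a type and less RNA per cell cannot be told apart, here and for every gene below.

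Tdo2, the dioxygenase that commits tryptophan to the kynurenine pathway, had 11.81, 11.64 and 11.75 in SHPCs of transplanted livers, 11.49, 11.23 and 11.27 in SHPCs of untransplanted livers and 10.97, 10.84 and 10.66 in hepatocytes. The 3 groups did not overlap at any step of that order. Over hepatocytes, Tdo2 rose by 0.91 ± 0.14 in SHPCs of transplanted livers (1.88-fold, 95% interval 0.60 to 1.22, adjusted p = 0.0189 by limma). The neighbouring steps did not pass: the change was 0.40 ± 0.14 in SHPCs of transplanted over untransplanted livers (adjusted p = 0.533 by limma) and 0.51 ± 0.14 in SHPCs of untransplanted livers over hepatocytes (adjusted p = 0.560). Under alternative settings the call over hepatocytes held in 15 of 23, with changes of 0.71 to 1.03. It ended with median centring (adjusted p = 0.0536), cyclic loess (0.103), all probe sets tested (0.0564), without any 1 array of transplanted livers (0.0707 to 0.110) and without hepatocyte array 2 (0.0524) or 3 (0.0721). Without array 2 of both groups the adjusted p was 0.0115.

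Kmo, the mitochondrial monooxygenase that makes 3-hydroxykynurenine, had 9.98, 9.99 and 9.93 in SHPCs of transplanted livers, 9.67, 9.01 and 9.24 in SHPCs of untransplanted livers and 9.17, 8.60 and 9.08 in hepatocytes. All arrays of transplanted livers lay above the rest, while the other groups overlapped. Kmo rose by 1.02 ± 0.20 over hepatocytes (2.03-fold, 95% interval 0.57 to 1.46, adjusted p = 0.0444 by limma). Its change was 0.66 ± 0.20 in SHPCs of transplanted over untransplanted livers (95% interval 0.22 to 1.11, adjusted p = 0.460 by limma) and 0.36 ± 0.20 in SHPCs of untransplanted livers over hepatocytes (adjusted p = 1). The call over hepatocytes held in 13 of 23 alternative settings, with changes of 0.82 to 1.13. It ended with median centring (adjusted p = 0.139), limma-trend (0.0755) and all probe sets tested (0.112), without any 1 array of transplanted livers (0.189 to 0.200), without any 1 hepatocyte array (0.0779 to 0.130) and without SHPC array 3 (0.0733). Without array 2 of both groups the adjusted p was 0.0180.

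Kynu, which splits 3-hydroxykynurenine, had 9.75, 9.75 and 9.64 in SHPCs of transplanted livers, 9.57, 9.13 and 9.82 in SHPCs of untransplanted livers and 9.79, 9.11 and 9.70 in hepatocytes. Its groups overlapped throughout, and the change over hepatocytes, 0.18, was -0.03 without array 2 of both groups. Haao, the dioxygenase whose product closes to quinolinate, had 8.67, 8.56 and 8.66 in SHPCs of transplanted livers, 8.48, 7.70 and 8.66 in SHPCs of untransplanted livers and 8.33, 7.92 and 8.50 in hepatocytes. Arrays of transplanted livers lay above those of hepatocytes (0.38 ± 0.24, adjusted p = 0.646 by limma, or 0.22 without hepatocyte array 2) and overlapped those of other SHPCs, where the change was 0.35, or 0.06 without SHPC array 2. The first steps of the kynurenine branch that were measured, Tdo2 and Kmo, thus passed over hepatocytes, and Kynu and Haao, which follow them, did not. Whether the changes differ between these genes was not tested.

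Other genes around these pathways were taken from lists of phenylalanine and tyrosine transamination, tetrahydrobiopterin (a cofactor of aromatic amino acid hydroxylases), tryptophan and NAD synthesis. Of these lists, 21 genes were tested, and Gstz1, Pcbd1 and Kyat3 were not analysed here. Set against hepatocytes, SHPCs of transplanted livers had 20 of the 21 higher and 4 passed, all higher, with a median change of 0.49, where 1.18% of all genes passed. When array 2 of both groups was left out 16 of 21 were higher and 6 passed, with a median of 0.20, where 3.64% of all genes passed, and without hepatocyte array 2 alone 2 passed, Got1 and Acmsd. By list, those passing were 2 of 2 transaminases, 0 of 5 cofactor genes, 2 of 9 tryptophan genes and 0 of 5 NAD genes. Set against SHPCs of untransplanted livers they had 17 of 21 higher and 0 passed by limma (5 at an unadjusted p under 0.05, against 7.35% of all genes). With array 2 of both groups left out 15 of 21 were higher and Acmsd passed, and under cyclic loess Ddc passed. In SHPCs of untransplanted livers over hepatocytes 16 of 21 were higher and 0 passed by limma (4 at an unadjusted p under 0.05, against 4.12% of all genes). There Acmsd passed without array 2 of both groups and with the block over these groups alone, and Ddc without SHPC array 2.

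The genes that passed were Got1 and Got2, the cytosolic and mitochondrial aspartate aminotransferases, which pathway maps also place at the transamination of tyrosine, and Acmsd and Ddc. Got1 had 10.75, 10.59 and 10.92 in SHPCs of transplanted livers, 10.35, 9.97 and 10.19 in SHPCs of untransplanted livers and 9.65, 9.37 and 9.44 in hepatocytes. Like Tdo2 it lay in 3 steps without overlap, and it rose by 1.27 ± 0.15 over hepatocytes (2.41-fold, adjusted p = 0.00585 by limma), a call kept in 23 of 23 alternative settings. Got2 rose by 0.72 ± 0.14 over hepatocytes (adjusted p = 0.0414 by limma), with levels of 7.66 to 7.85 in SHPCs of transplanted livers, 7.46 to 7.48 in SHPCs of untransplanted livers and 6.79 to 7.18 in hepatocytes. Its call held in 9 of 23 settings.

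Acmsd, the decarboxylase that turns the product of Haao away from quinolinate and NAD, had 9.66, 9.37 and 9.41 in SHPCs of transplanted livers, 8.24, 7.21 and 8.37 in SHPCs of untransplanted livers and 7.20, 6.01 and 7.28 in hepatocytes. All arrays of transplanted livers lay above the rest, and SHPCs of untransplanted livers overlapped hepatocytes through array 2. Its rise of 2.65 ± 0.37 over hepatocytes (6.27-fold, adjusted p = 0.0119 by limma) ended in 3 of 23 settings, each without 1 array of transplanted livers (largest adjusted p 0.0807). Ddc, the decarboxylase of aromatic amino acid derivatives, had 7.90, 7.97 and 7.85 in SHPCs of transplanted livers, 7.17, 6.16 and 7.05 in SHPCs of untransplanted livers and 6.15, 6.02 and 6.42 in hepatocytes. It rose by 1.71 ± 0.24 over hepatocytes (3.28-fold, adjusted p = 0.0132 by limma), a call kept in 17 of 23 settings. In SHPCs of transplanted over untransplanted livers the changes were 1.54 ± 0.37 for Acmsd (adjusted p = 0.301 by limma) and 1.11 ± 0.24 for Ddc (adjusted p = 0.240), and neither passed. The change there without array 2 of both groups was 1.17 for Acmsd, which then passed (adjusted p = 0.0265 by limma), and 0.80 for Ddc (adjusted p = 0.0670).

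Among genes that did not pass, Ido2, a tryptophan-cleaving enzyme related in function to Tdo2, was 0.94 ± 0.21 higher over hepatocytes (adjusted p = 0.0735 by limma). It passed under renewed quantile normalization, cyclic loess, array quality weights, fixed and random replicate blocks and without SHPC array 2. In the other settings, that without array 2 of both groups included, it did not pass. Qdpr, which regenerates tetrahydrobiopterin, was 0.94 ± 0.24 higher (adjusted p = 0.133 by limma), and 0.78 higher without array 2 of both groups, where it passed (adjusted p = 0.0158). Aadat, an aminotransferase of kynurenine, was 1.04 ± 0.59 higher (adjusted p = 0.608 by limma). It stood at 8.91, 7.56 and 9.21 in hepatocytes, and its change was 0.53 without hepatocyte array 2, and passed with SHPC array 2 left out as well (adjusted p = 0.0466). Qprt, which takes quinolinate into NAD synthesis, had a change of 0.24 ± 0.27 over hepatocytes, or -0.015 without hepatocyte array 2, and overlapped in all comparisons.

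**Figure D3:**
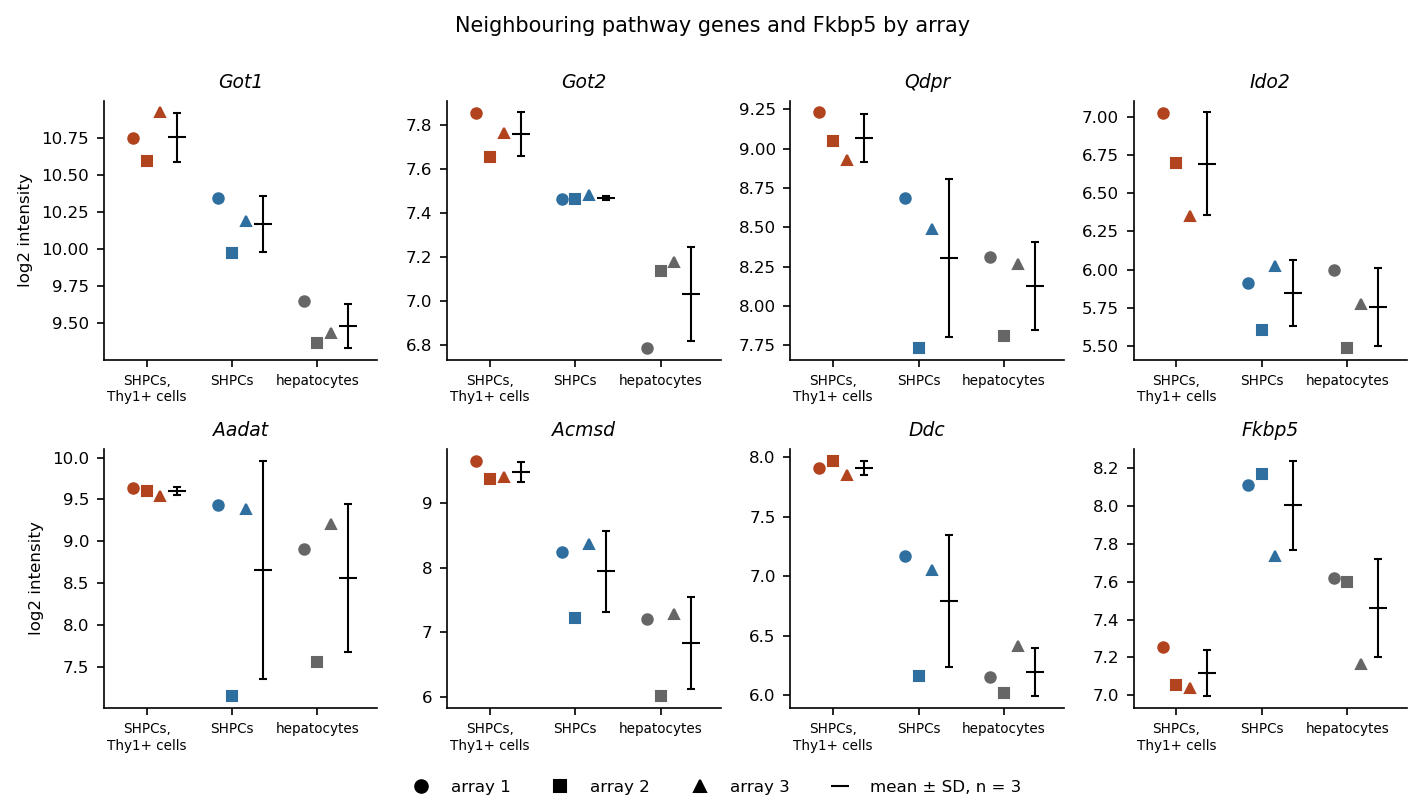
Log2 intensity on each array (points) with the group mean (bar) for other genes of the tyrosine, tryptophan and cofactor lists, in SHPCs of transplanted livers, SHPCs of untransplanted livers and hepatocytes. Fkbp5, a glucocorticoid response gene outside these lists, is drawn as well. Got1 lies in 3 separate steps, and Acmsd and Ddc are highest on the 3 arrays of transplanted livers.

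Regulators of these genes and of the glucocorticoid response were listed because Tat and Tdo2 respond to glucocorticoids. Of 9 tested regulators and 8 tested response genes, 0 passed in each of the 3 comparisons by limma. At an unadjusted p under 0.05 the 17 genes gave 5 in SHPCs of transplanted over untransplanted livers, 2 in SHPCs of untransplanted livers over hepatocytes and 6 in SHPCs of transplanted livers over hepatocytes, where all genes gave 7.35%, 4.12% and 10.4%. Fkbp5, a glucocorticoid-induced co-chaperone of the receptor, had 7.26, 7.06 and 7.04 in SHPCs of transplanted livers, 8.11, 8.17 and 7.74 in SHPCs of untransplanted livers and 7.62, 7.60 and 7.16 in hepatocytes. As for Tat, its mean was highest in SHPCs of untransplanted livers, with a change of -0.89 ± 0.17 in SHPCs of transplanted over untransplanted livers (adjusted p = 0.181 by limma) and 0.54 ± 0.17 in SHPCs of untransplanted livers over hepatocytes (adjusted p = 0.763). Onecut1, a liver transcription factor, had 6.33, 6.81 and 7.30 in SHPCs of transplanted livers, all below the 7.84 to 8.36 of SHPCs of untransplanted livers (-1.23 ± 0.26, adjusted p = 0.224 by limma). Between these groups Onecut1 passed in 3 of 23 alternative settings and Fkbp5 in 2 of 23. Nr3c1, the glucocorticoid receptor, was 0.66 ± 0.23 higher in SHPCs of transplanted than of untransplanted livers (adjusted p = 0.568), or 0.42 without SHPC array 2. Dusp1, another glucocorticoid-responsive gene, had the opposite sign to Fkbp5, at 1.54 ± 0.45 in the same comparison (adjusted p = 0.457 by limma).

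Set against hepatocytes, Dusp1 in SHPCs of transplanted livers was 1.92 ± 0.45 higher (adjusted p = 0.0952 by limma) and passed in 6 of 23 settings. Foxa3, a hepatocyte transcription factor, was 0.69 ± 0.17 higher (adjusted p = 0.106 by limma). It passed in 4 of 23 settings, among them without array 2 of both groups (0.77, adjusted p = 0.0444). Ppargc1a, a coactivator of fasting metabolism, was 1.29 ± 0.31 higher (adjusted p = 0.106 by limma) and passed in 6 of 23 settings. Response genes went in both directions in this comparison, 4 of 8 higher and 4 of 8 lower.

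Markers of other cell types differed between arrays beside the 8 enzymes. All 15 listed markers of macrophages, including Kupffer cells, were tested, and their mean level was 7.76, 7.77 and 7.94 in SHPCs of transplanted livers, 7.53, 6.62 and 7.45 in SHPCs of untransplanted livers and 7.74, 7.13 and 7.56 in hepatocytes. Of these, 15 of 15 in SHPCs of transplanted over untransplanted livers were higher (median 0.62, 0 passing by limma). Without SHPC array 2 it was again 15 of 15 (median 0.27). At an unadjusted p under 0.05 there were 6 of 15 in this comparison, against 7.35% of all genes. In SHPCs of transplanted livers over hepatocytes 13 of 15 were higher and 1 passed, where 1.18% of all genes passed. This was Marco, a scavenger receptor (0.80 ± 0.16, adjusted p = 0.0456 by limma), whose call held in 8 of 23 settings. Without hepatocyte array 2 the count was 9 of 15 higher, with a median of 0.085 against 0.31. In SHPCs of untransplanted livers over hepatocytes 13 of 15 were lower (median -0.31, 0 passing by limma). There 3 of 15 had an unadjusted p under 0.05, against 4.12% of all genes. Those lower there were 7 of 15 without SHPC array 2 and 13 of 15 without array 2 of both groups. Kmo and Kynu are also expressed in macrophages, and the part of these cells in the enzymes' changes was not tested. None of the 15 markers was at or near 0, as each lay above the 25th percentile on all 9 arrays. On SHPC array 2 the mean of the macrophage markers and each measured enzyme other than Tat, Kmo included, were at the lowest of the SHPC arrays of untransplanted livers.

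Cholangiocyte markers had mean levels of 4.47 to 4.65 in SHPCs of transplanted livers, 4.38 to 4.49 in SHPCs of untransplanted livers and 4.08 to 4.20 in hepatocytes, so that the list mean lay above hepatocytes in both SHPC groups. Of its 7 tested markers, 5 were higher and 2 lower (lowest -0.30) in SHPCs of transplanted livers over hepatocytes. In SHPCs of untransplanted livers over hepatocytes 7 of 7 were higher, or 5 of 7 without SHPC array 2. Endothelial markers had 6.62 to 6.80 in SHPCs of transplanted livers, 6.22 to 6.65 in SHPCs of untransplanted livers and 6.37 to 6.80 in hepatocytes. Stellate cell markers had 6.34 to 6.55 in SHPCs of transplanted livers, 5.74 to 6.33 in SHPCs of untransplanted livers and 5.91 to 6.43 in hepatocytes. T and NK cell markers had 4.05 to 4.16 in SHPCs of transplanted livers, 3.94 to 4.36 in SHPCs of untransplanted livers and 4.00 to 4.05 in hepatocytes. The endothelial, stellate and T and NK lists overlapped between hepatocytes and at least 1 of the SHPC groups. In SHPCs of transplanted over untransplanted livers, 6 of 6 endothelial and 8 of 8 stellate markers were higher, against 53.0% of all genes. Of T and NK markers 3 of 8 were higher there, and of cholangiocyte markers 4 of 7. Without SHPC array 2 the counts were 4 of 6 endothelial, 7 of 8 stellate, 6 of 8 T and NK and 4 of 7 cholangiocyte markers. No marker of these lists passed in SHPCs of transplanted livers over hepatocytes by limma, the nearest being Prom1 among cholangiocyte markers (1.21 ± 0.25, adjusted p = 0.0535). There were 2 cholangiocyte markers that passed without array 2 of both groups, Krt19 (0.63) and Epcam (1.08), and 1 passed under cyclic loess, under renewed quantile normalization and without SHPC array 2, where 1 stellate marker passed too. The part of these cells in the enzymes' changes was not tested.

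**Figure D4:**
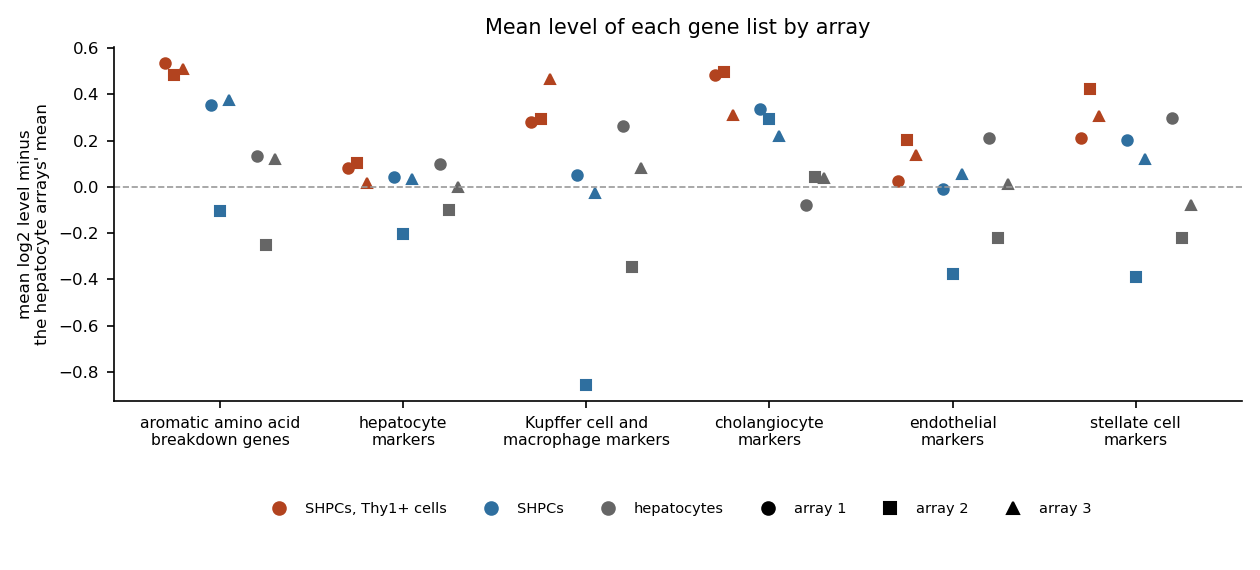
Mean log2 level of each gene list on each array (points), set against the hepatocyte mean of that list, for SHPCs of transplanted livers, SHPCs of untransplanted livers and hepatocytes. The macrophage markers are lowest on SHPC array 2, at -0.86, and the 8 enzymes lie highest on the arrays of transplanted livers.

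The enzymes other than Tat were correlated over the arrays. Pearson's r over the 9 arrays, which share groups and the departure of the arrays numbered 2, lay between 0.29 and 0.96 for the 21 pairs without Tat, with a median of 0.77. Over the 7 other arrays it lay between -0.34 and 0.95, with a median of 0.54. The 7 pairs with Tat had r between -0.26 and 0.33 over 9 arrays, with a median of 0.04. Over the 7 arrays they had r between -0.45 and 0.53, with a median of 0.08. The ranges of pairs with and without Tat overlapped over the 9 arrays as well as over the 7. Over 9 arrays, 0 of the other tested genes followed Tat at r above 0.9, against 69 for Tdo2, 244 for Kmo and 1243 for Fah. These counts include the arrays numbered 2, on which Tat was not low, and were not made without them. These are descriptions of these arrays.

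Tested genes were ranked by likeness to each enzyme, leaving out symbols that begin with LOC, AABR, or RGD and a digit. The most like over the 9 arrays were Mrps31 (r = 0.99) and Got1 (0.98) for Tdo2. They were Sec61a1 (0.99) and Gstp3 (0.99) for Kmo, and Ccne2 (0.89) and Cenpt (0.89) for Tat. Over the 7 arrays that did not stand apart, r was 0.99 and 0.98 for those of Tdo2, 0.99 and 0.98 for those of Kmo, and 0.86 and 0.85 for those of Tat. For Hpd they were Gstm7 (0.97) and Mx2 (0.97), for Hgd Cog4 (0.99) and Hsbp1 (0.98), and for Fah Phpt1 and Tufm (1.00 each). For Kynu they were Cpped1 and Etfa (0.98 each), with 0.86 and 0.80 over 7 arrays, and for Haao Mrps15 and Park7 (0.99 each).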

How the data were processed

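The authors deposited 1 linear intensity per array for each of 36685 probe sets, made with RMA per the submitters' processing notes, which give no version or settings. The log2 of these deposited values was taken here. Gene names came from the platform annotation (18511 with 1 symbol, 575 with several and left out, 17599 unnamed here). Where a gene had several, the one with the highest mean was used, which gave 18166 genes. Genes above the array's 25th percentile on at least 3 of 9 arrays were tested (15793 kept, 2373 left out as dim). Some probe sets held equal values on all 3 arrays of a group (648 in SHPCs of transplanted livers, 337 in SHPCs of untransplanted livers and 319 in hepatocytes), but 0 of the 8 enzymes did. Regions were captured from 7 µm sections, and the number of arrays, 3 a group, limits the precision.

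Groups followed the cell type and treatment labels, and limma 3.58.1 (R 4.3.3) compared them as 3 group means in a single fit with 6 residual degrees of freedom and eBayes. Replicate numbers come from the titles. The single fit did not pair arrays by these numbers, which entered only in the blocked fits. Residuals of same-numbered arrays correlated at 0.53, 0.70 and 0.34 between SHPCs of untransplanted livers and hepatocytes. The largest was that of the 2 arrays that stood apart, and SHPC array 3 correlated more with hepatocyte array 1 (0.48). Between SHPCs of transplanted livers and the other groups, residuals of same-numbered arrays correlated at -0.09 to 0.00. What these arrays share beyond the number, the labels do not say. No batch is given in the labels. Alternatives were other scalings, filters, variance models, replicate blocks and each array left out. The block within SHPCs of untransplanted livers and hepatocytes alone was chosen after seeing the data. Promoter windows came from RefSeq (GRCr8) and describe genes, since the sources used here name no build for the arrays.

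The members and gene lists were chosen with earlier results of these data known. Named were all 9 members, every gene of the neighbouring pathway lists that passed, the 2 genes most like each member, and up to 2 genes with the smallest p of each other list in a comparison. The likeness ranking left out symbols that begin with LOC, AABR, or RGD and a digit. Ido2, Qdpr, Aadat and Qprt were named after their values were seen. For marker lists, mean levels are given in place of most single genes.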

Additional observations from a re-analysis of the deposited data

How the results depend on the processing

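In SHPCs of transplanted livers over hepatocytes, the count of enzymes passing, 2, was 0 with median centring and with all probe sets tested, 1 with cyclic loess and with limma-trend, 4 with array quality weights and 0 to 2 with 1 array left out. In each of the other comparisons it was 0 in every setting but array quality weights, which gave 1. Replicate blocks over all 9 arrays changed no member's call, and for SHPCs of untransplanted livers over hepatocytes the block left 0 passing. What the arrays of transplanted livers share with same-numbered others beyond the number is not in the labels. For them a fixed block moved all genes called to 64 against 1 over SHPCs of untransplanted livers and to 367 against 186 over hepatocytes. All genes called over hepatocytes in SHPCs of transplanted livers numbered 31 to 2685 across settings, with 47 under median centring, 439 under cyclic loess, 328 under renewed quantile normalization and 63 with all probe sets tested. In SHPCs of transplanted over untransplanted livers they numbered 0 to 259, and in SHPCs of untransplanted livers over hepatocytes 0 to 375. Median centring added 0.103 to every change in SHPCs of transplanted over untransplanted livers and 0.0928 over hepatocytes. The enzymes' median change there spanned 0.08 to 0.42 and 0.16 to 0.44.

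Direction turned for small changes. Under cyclic loess, Kynu was -0.042 in SHPCs of transplanted over untransplanted livers, -0.015 in SHPCs of transplanted livers over hepatocytes and 0.027 in SHPCs of untransplanted livers over hepatocytes, and Hgd was -0.030 in SHPCs of transplanted livers over hepatocytes. In SHPCs of untransplanted livers over hepatocytes, renewed quantile normalization gave -0.0052 for Hpd and array quality weights 0.020 for Kynu. With 1 array left out, that comparison gave -0.017 to 0.12 for Hpd, -0.20 to 0.017 for Hgd, -0.18 to 0.54 for Fah, -0.24 to 0.16 for Kynu and -0.16 to 0.32 for Haao. For Kynu in SHPCs of transplanted livers over hepatocytes it gave -0.031 to 0.31, and -0.031 without array 2 of both other groups. The cause was not tested. Spots near background limit none of the 8 enzymes.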
